A study of Musca domestica with 29 samples.

Results

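Cytochrome P450 enzymes and the reductase that feeds them electrons were followed through the heads and abdomens of house flies (Musca domestica). The set was 7 of the 16540 genes in each table, found by symbol: the P450 genes CYP6A24, CYP6D3, CYP6D8, CYP6G4, CYP12A2 and LOC101891761, whose synonym in the reference gene table is CYP6A40, and CPR, the NADPH-cytochrome P450 reductase. All 7 had a row in both tables and all passed the filter on low values in both tissues. Microsomal P450 enzymes sit in the endoplasmic reticulum and oxidise hydrophobic compounds, among them insecticides, plant toxins and hormones, with electrons that CPR takes from NADPH and that cytochrome b5 can partly supply. Mitochondrial P450 enzymes, the family to which CYP12 genes belong, draw instead on adrenodoxin and its reductase. In flies the fat body, gut and Malpighian tubules are main sites of P450 expression, and raised P450 expression is a common feature of insecticide-resistant house flies.

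The study compared males that differ in their proto-Y chromosome, a young male-determining chromosome. YM males (IsoCS strain) and the 2 IIIM lines, IIIM #1 (CS) and IIIM #2 (CSrab), were labelled isogenic apart from the named proto-Y, while YM(III) males (bwbCS) also differed in 1 copy of chromosome III. Each genotype had 3 replicates of the head and 3 of the abdomen, and the females, labelled isogenic with one another, gave 2 abdomens (IsoCS and CSrab) and 3 heads (IsoCS, CSrab and CS), which makes 29 libraries. No drug or insecticide treatment and no age is given in the labels. Of the 7 genes, CPR and CYP6G4 are placed on Muller element C in the tables, CYP12A2 and CYP6D8 on E, CYP6D3 on B, and CYP6A24 and CYP6A40 on none; no gene of the set was placed on element A, the house fly's chromosome III.

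Levels are normalized counts, that is, read counts divided by the size factor of the library. The head and abdomen tables were normalized separately. Recovered reads ran from 788942 to 43474931 in male abdomens, where YM replicate 2 and IIIM #2 replicate 2 (788942 and 791295 reads) were the shallowest, and from 5804435 to 39241420 in male heads. The female abdomens had 30527891 and 13898210 reads and the female heads 28992341 to 29841775. Replicate 3 of every male genotype stood apart from replicates 1 and 2. Its libraries were the deepest among males, with at least 17608383 reads in the abdomen and 31859895 in the head. In the head the first principal component, 29.4% of the variance, put them at 28.0 to 70.4, beside the females at 32.8 to 39.0, with replicates 1 and 2 at -65.5 to -26.9. Results that rest on these libraries are therefore given with and without them.

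In the abdomen all 6 P450 genes were higher in males than in females. The ratios of mean normalized counts were 12.7 to 22.8. CPR was 3.27 times higher and did not pass the test. These ratios depend on the scaling. As cpm, that is, reads scaled by the library's total alone, each ratio was lower. Mean cpm was 2174 in males and 142 in females for CYP6D3, and 1078 and 481 for CPR. CYP6D3, known from pyrethroid-resistant house flies, had normalized counts of 1010 and 514 in the 2 female abdomens and of 8323 to 26259 in the 12 male abdomens, with a median of 16417. CYP6A24, of the same CYP6 family, had 956 and 472 in females and 1968 to 20257 in males, with a median of 6632. Every male lay above both females for either gene, and the males themselves were spread over a wide range.

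CYP6G4, also known from resistant house flies, had normalized counts of 182 and 67.5 in the female abdomens against a male median of 1315 and a male range of 454 to 6424. CYP6D8 had 358 and 332 in females, and its male values, with a median of 5549, ran from 399, hardly above the females, to 14388. In normalized counts the groups did not overlap for either gene. The lowest male CYP6D8 library, YM(III) replicate 1, missed the higher female by a narrow margin. As cpm that library, at 51.9, lay below both females, at 71.6 and 53.4. CYP6A40 stood at 23.1 and 17.0 in females and at 191 to 501 in males, with a median of 329. CYP12A2, the mitochondrial member, stood at 10.3 and 4.92 in females and at 102 to 349 in males, with a median of 151. The female values of these last 2 genes rest on few reads, 11 and 63 for CYP12A2 and 38 and 141 for CYP6A40.

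**Figure D1:**
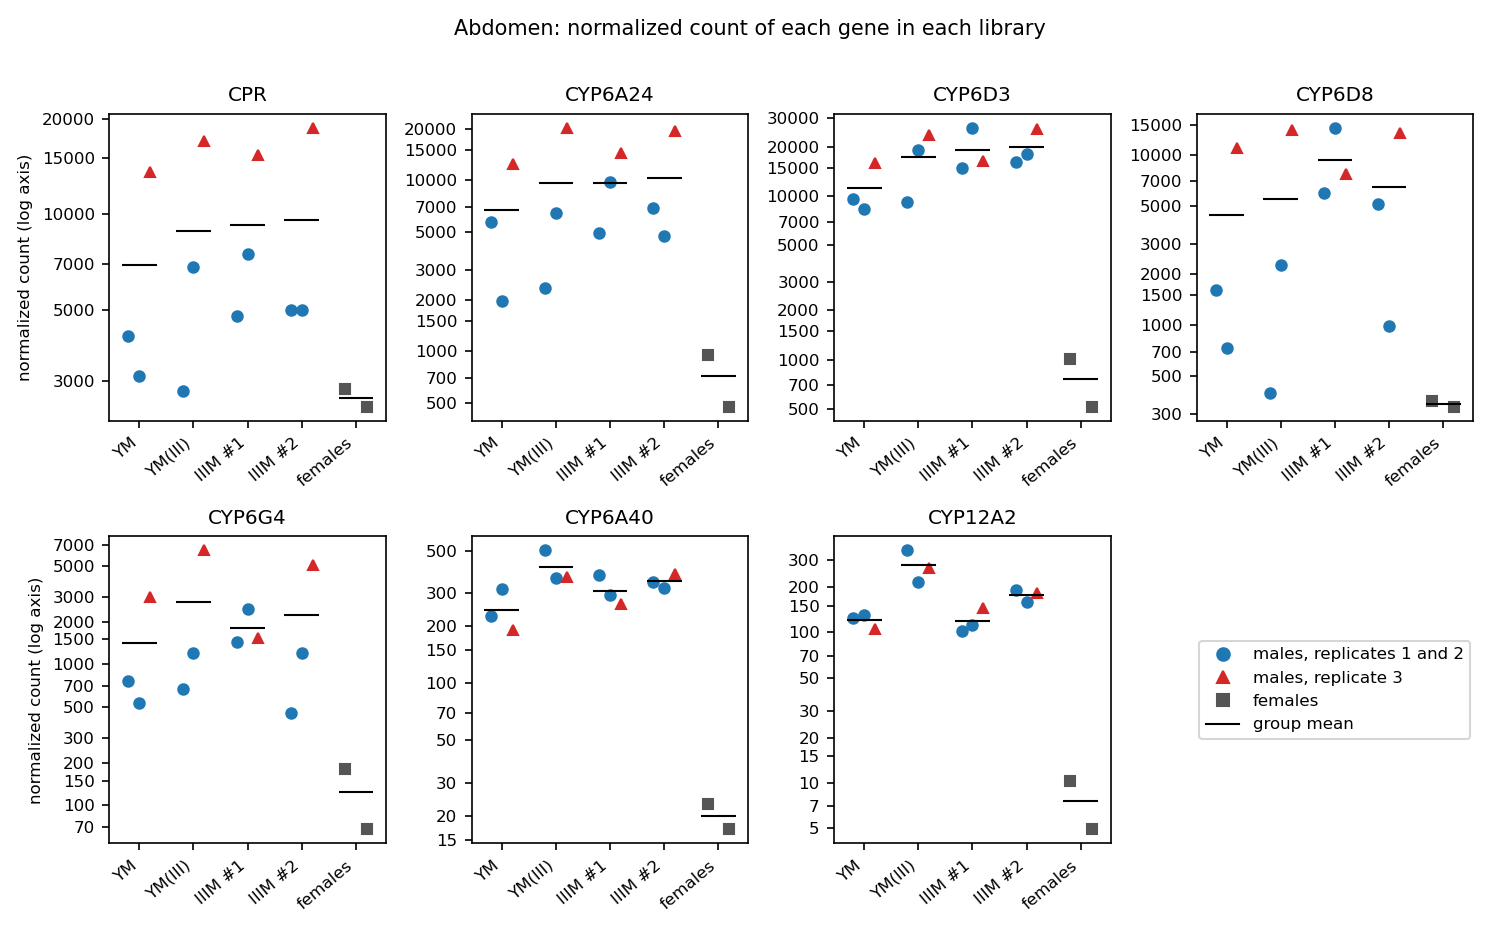
Normalized count (log axis) of CPR and the 6 P450 genes in each abdomen library, by male genotype and in females; circles are male replicates 1 and 2, triangles male replicate 3, squares females, and bars group means. On this scale every male lies above both females for each P450 gene. For CPR the lowest male, at 2776, lies between the females at 2817 and 2480.

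All 6 P450 genes passed limma's test that set the mean of the 4 male genotypes against the females, with Benjamini-Hochberg adjustment over all 11486 genes tested. So did 39% of all genes tested in the same direction and 71.3% in either direction, and the median log2 fold change of all genes was 0.42. The 6 P450 genes ranged from 3.41 to 4.46 on that scale, log2(normalized count + 1). CYP6A40 was higher by a log2 fold change of 3.93 (SE 0.23, adjusted p = 1.00e-07), CYP12A2 by 4.31 (SE 0.27, adjusted p = 1.70e-07) and CYP6D3 by 4.46 (SE 0.39, adjusted p = 1.70e-06). CYP6A24 was higher by 3.41 (SE 0.80, adjusted p = 0.00237), CYP6G4 by 3.70 (SE 0.92, adjusted p = 0.00353) and CYP6D8 by 3.43 (SE 1.21, adjusted p = 0.0239). In normalized counts every male abdomen lay above both females for each of these 6 genes. Of all genes tested 31.2% showed that arrangement in that direction. As cpm it did not hold for CYP6D8, where YM(III) replicate 1 lay below both females.

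CPR had normalized counts of 2817 and 2480 in the female abdomens and of 2776 to 18709 in the male abdomens, with a median of 5923. Of the 12 males, 11 lay above both females and YM(III) replicate 1 lay between them. As cpm YM(III) replicate 1, at 362, lay below both females, at 563 and 399, and YM replicate 2, at 513, lay between them. The log2 fold change of CPR, 1.41 (SE 0.72), had an adjusted p of 0.0945 in limma. The adjusted p was 0.0256 in DESeq2, which called 78.5% of all genes, and 0.0494 in limma without YM(III) replicate 1. With males of replicates 1 and 2 alone CPR was higher in males by 0.82 (SE 0.32, adjusted p = 0.0415, with 42.3% of all genes called higher), and with males of replicate 3 alone by 2.60 (SE 0.27, adjusted p = 0.000185, with 39.3% called higher). The 6 P450 genes were called in both of these sets of males.

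The calls for CYP6D8 and CYP6G4 rested on having both females. Without female replicate 1, CYP6D8 had a log2 fold change of 3.49 with an adjusted p of 0.109, and without female replicate 2 one of 3.38 with an adjusted p of 0.121. CYP6G4 without female replicate 2 stood at 2.99 with an adjusted p of 0.0698. The fold change thus stayed close to that with both females for CYP6D8 and was lower for CYP6G4. CYP6D8 also missed the threshold where YM males alone (0.112) or YM(III) males alone were set against the females. In bulk tissue a lower share of P450-expressing cells and less RNA per cell cannot be told apart. The 2 ovary and egg markers found of 9 names searched, bcd, a maternal transcript, and yp3, a yolk protein, summed to 2538 and 3668 in the female abdomens and to 49.3 to 792 in the males. Most of the female sums was yp3, at 2460 and 3487. That gene was also the fat body marker found, so the sum does not measure the share of ovary. The nervous markers moved the other way, as the 2 found of 5, para-like and pdf, summed to 32.6 and 71.3 in females and to 352 to 4161 in males. The part of tissue makeup in the P450 differences was not tested.

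The P450 difference between the sexes in the abdomen exceeded that of the reductase. Each P450 value was divided by the CPR value of the same library, which cancels the library's scaling; the size of such a quotient also reflects transcript length, so only its differences between libraries are read. CYP6D3 gave quotients of 0.358 and 0.207 in females and of 1.07 to 3.60 in males, with a median of 2.74. CYP6A24 gave 0.339 and 0.190 in females and 0.635 to 1.37 in males, with a median of 0.987. For all 6 P450 genes every male quotient lay above both female quotients. How many of all genes show that arrangement of quotients was not computed, so it is not read as particular to the P450 genes. CYP6D8 came closest to overlap, with 0.127 and 0.134 in females and a lowest male of 0.144.

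**Figure D2:**
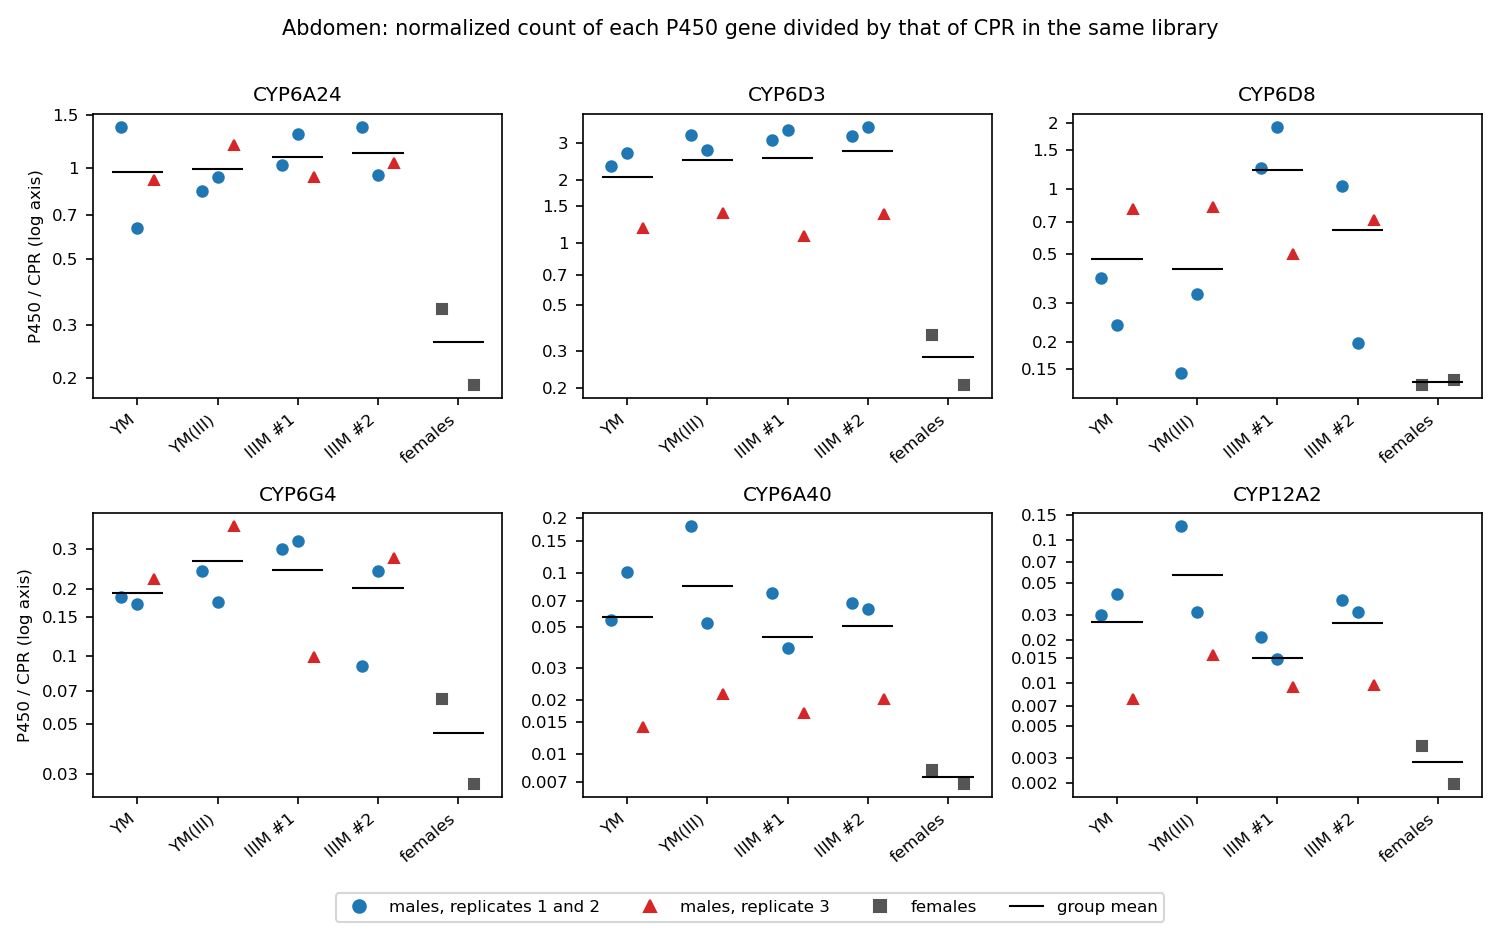
Normalized count of each P450 gene divided by that of CPR in the same abdomen library (log axis), by male genotype and in females; symbols as in the plot of abdomen levels, bars are group means. All 12 males lie above both females for each of the 6 genes, and for CYP6D3, CYP6A40 and CYP12A2 the replicate 3 quotient is the lowest within every genotype. The share of all genes with either arrangement was not computed.

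In limma on these log2 quotients, all 6 P450 genes were higher in males, beside 14.5% of all genes in that direction and 49.5% in either. The log2 differences relative to CPR were 3.05 for CYP6D3 (SE 0.76, adjusted p = 0.00348), 2.90 for CYP12A2 (SE 0.87, adjusted p = 0.0106), 2.52 for CYP6A40 (SE 0.88, adjusted p = 0.0230), 2.29 for CYP6G4 (SE 0.72, adjusted p = 0.0131), 2.02 for CYP6D8 (SE 0.82, adjusted p = 0.0456) and 2.00 for CYP6A24 (SE 0.68, adjusted p = 0.0204). The median over all genes was -0.99, the log2 fold change of CPR itself being 1.41. These 6 values share the noise of CPR and are not independent of one another. Their size also depends on the set of males. Mean male quotients in replicate 3 and in replicates 1 and 2 were 1.25 and 3.07 for CYP6D3. They were 0.0181 and 0.0796 for CYP6A40, and 0.0107 and 0.0418 for CYP12A2. The 2 means were closer for CYP6A24 (1.02 and 1.05), CYP6D8 (0.711 and 0.685) and CYP6G4 (0.242 and 0.215). The call for CYP6D8 was the least stable of the 6, lost in 8 of the 14 fits that left out 1 library, of either sex, and with no filter (adjusted p = 0.0593), a pseudocount of 5 (adjusted p = 0.0512) or a replicate block (adjusted p = 0.0740). The calls rested on having both females, and with 1 female left only effect sizes are read. Every value then stayed positive. Without female replicate 2 the log2 difference was 2.66 for CYP6D3, 2.52 for CYP12A2 and 2.40 for CYP6A40. It was 2.06 for CYP6D8, 1.68 for CYP6G4 and 1.59 for CYP6A24.

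In the head the direction was the opposite: CYP6D3, CYP6A24 and CYP6A40 were lower in males than in females, and the other members had lower male means without passing the test. CYP6D3 had normalized counts of 15363, 15503 and 14233 in the 3 female heads and of 8161 to 12255 in the 12 male heads, with a median of 9340. CYP6A40 had 547, 487 and 469 in females and 266 to 447 in males, with a median of 312. Every male lay below every female for these 2 genes, as for 10.2% of all genes tested. CYP6A24 had 5660, 9257 and 6874 in females and 1757 to 6122 in males, with a median of 3886, so that 1 male, IIIM #2 replicate 3, lay above the lowest female.

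The log2 fold change was -0.67 for CYP6D3 (SE 0.14, adjusted p = 0.00687), -0.62 for CYP6A40 (SE 0.14, adjusted p = 0.0104) and -0.98 for CYP6A24 (SE 0.30, adjusted p = 0.0397) in limma over 12234 genes. Of all genes 10.1% were called lower in males and 16.5% in either direction. CYP6A24 lost its call in 10 of the 15 fits that left out 1 library. Without female replicate 1 only CYP6D3 stayed past the threshold, and CYP6A40 had an adjusted p of 0.0748, in a fit with 1 female fewer for every gene. Of the tissue markers, yp3, which is also the 1 fat body marker found of 4, was lower in male heads by a log2 fold change of -4.59 (SE 0.66, adjusted p = 0.000697), with 24.3 to 149 in males and 582 to 6560 in females, while bcd was at 0 in every male head and reached 0.654 in 1 female head. The nervous markers summed to 2931 to 5880 in male and 4564 to 6211 in female heads. The part of tissue makeup in the head differences was not tested.

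CPR had normalized counts of 14980.0, 14726 and 12691 in the female heads and of 6843 to 15466 in the male heads, with a median of 7672. CYP6G4 had 50721, 51268 and 44939 in females and 13892 to 79733 in males, with a median of 21920. CYP6D8 had 8006, 17138 and 13716 in females and 1356 to 13528 in males, with a median of 5227. For all 3 genes the males split by replicate number: males of replicates 1 and 2 lay below every female, while those of replicate 3 were spread from below the females into or beyond the female range. In all, 10 of the 12 males lay below every female for CPR and for CYP6G4, and 9 for CYP6D8. CYP12A2, at 509, 481 and 437 in females and 237 to 578 in males, overlapped as well.

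Over all males, CPR had a log2 fold change of -0.67 (SE 0.27, adjusted p = 0.106), CYP12A2 of -0.45 (SE 0.19, adjusted p = 0.127), CYP6D8 of -1.49 (SE 0.65, adjusted p = 0.141) and CYP6G4 of -0.97 (SE 0.48, adjusted p = 0.190). With males of replicates 1 and 2 alone all 7 members were lower in males, beside 27.3% of all genes. There CYP6D8 stood at -2.13 (SE 0.27, adjusted p = 0.000291), CYP6G4 at -1.42 (SE 0.18, adjusted p = 0.000165) and CPR at -0.93 (SE 0.08, adjusted p = 1.30e-05). With males of replicate 3 alone, a set chosen after the values were seen, CYP6D3 at -0.58 (SE 0.15, adjusted p = 0.0314) and CYP6A40 at -0.79 (SE 0.15, adjusted p = 0.00971) were called, beside 11.9% of all genes called lower. CPR then stood at -0.14 (SE 0.18, adjusted p = 0.592) and CYP6G4 at -0.06 (SE 0.29, adjusted p = 0.897). CYP6D3 and CYP6A40 were thus lower in males in either set of males, and the size of the other differences depended on the set. The male numbers were taken to pair heads across genotypes, which is not shown for numbers 1 and 2 apart from the step to replicate 3. With the replicate number as a block 5 members were called, beside 25.5% of all genes in either direction. CPR (adjusted p = 0.0222) and CYP6D8 (adjusted p = 0.0154) were the members added. That block also ties each female to the males of its number, although same-numbered female and male heads did not deviate together (mean correlation -0.0114 over 12 pairs). Without IIIM #2 replicate 3, 6 were called, beside 12.7% of all genes called lower, among them CPR (adjusted p = 0.0292), CYP6D8 (adjusted p = 0.0454) and CYP6G4 (adjusted p = 0.0351).

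**Figure D3:**
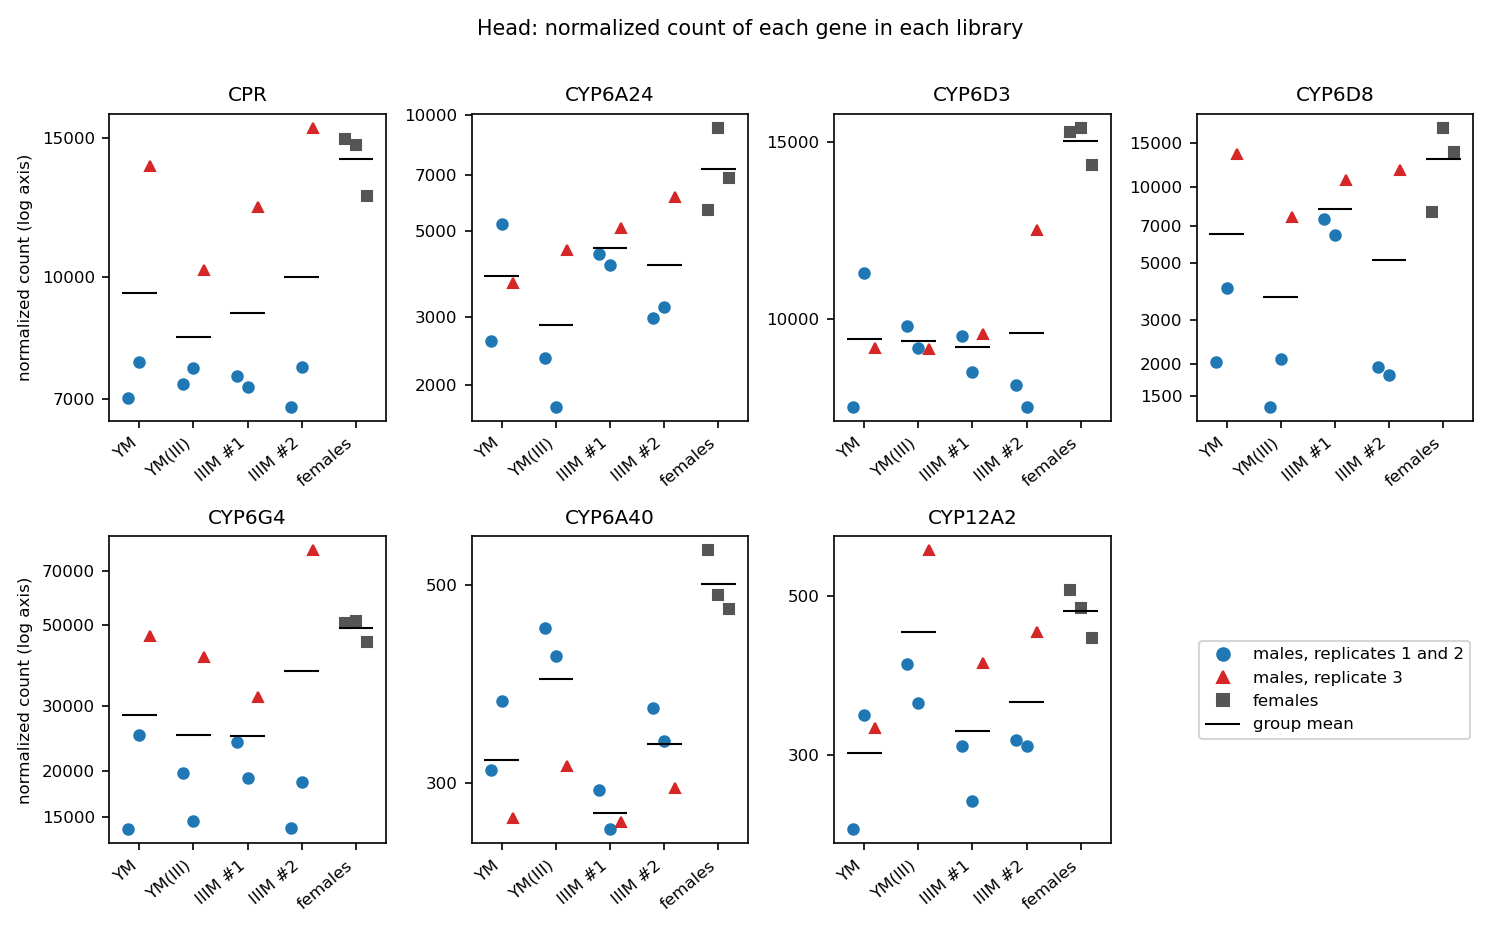
Normalized count (log axis) of CPR and the 6 P450 genes in each head library, by male genotype and in females; symbols as in the plot of abdomen levels, bars are group means. CYP6D3 and CYP6A40 show every male below every female, and for CPR, CYP6D8 and CYP6G4 the replicate 3 male is the highest within every genotype.

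In the head no P450 gene passed the test of its sex difference against that of CPR when all males were used. The log2 differences relative to CPR ran from -0.82 for CYP6D8 to 0.22 for CYP12A2, with CYP6D3 at 0.00, and 0 of 6 were called, with 0 at an unadjusted p under 0.05, beside 26.7% of all genes. With males of replicates 1 and 2 alone 4 were called, beside 76% of all genes: CYP12A2 at 0.33 (adjusted p = 0.0250) and CYP6A40 at 0.40 (adjusted p = 0.00442) fell short of the reductase's difference, and CYP6D8 at -1.20 (adjusted p = 0.00282) and CYP6G4 at -0.49 (adjusted p = 0.0167) went past it. The 3 female heads agreed closely for CYP6G4, whose quotient to CPR was 3.39 to 3.54, against 1.91 to 5.16 in males.

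**Figure D4:**
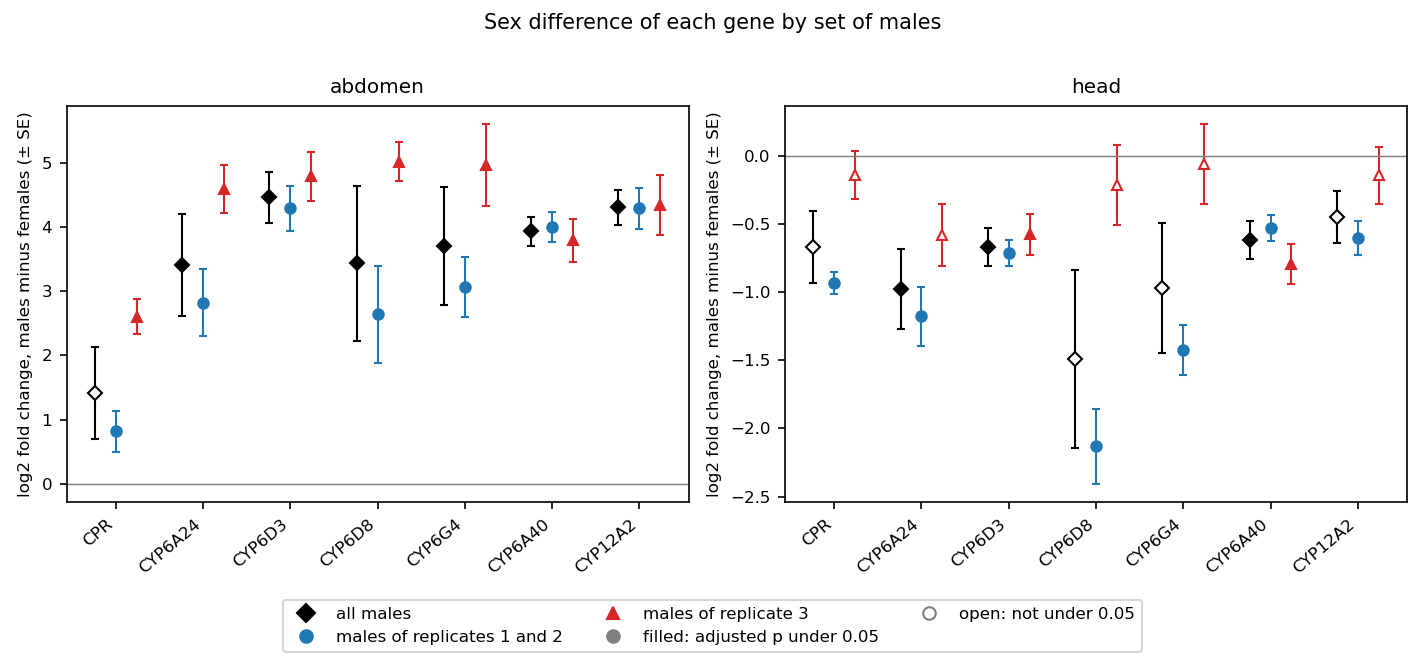
Log2 fold change of males against females (± SE, limma) for each gene in the abdomen and the head, with all males, with males of replicates 1 and 2, and with males of replicate 3; filled symbols had an adjusted p under 0.05. Every abdomen value lies above 0 and every head value below 0, and the spread between the sets of males is widest for CPR, CYP6A24, CYP6D8 and CYP6G4.

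Fewer of these genes were called between male genotypes than between the sexes. YM and YM(III) males together against both IIIM lines gave 0 of 7 calls in either tissue, with 0 at an unadjusted p under 0.05 in limma and 0 calls by edgeR and by DESeq2. Of all genes limma called 0.0265%, edgeR 0.0265% and DESeq2 1.19% in the abdomen, and 0.473%, 0.365% and 1.49% in the head. The log2 fold changes ran from -1.35 to 0.32 in the abdomen (lowest adjusted p = 0.810) and from -0.53 to 0.21 in the head (lowest adjusted p = 1.00). CPR averaged 7905 ± 5994 (SD, n = 6) in YM-bearing and 9404 ± 6098 (SD, n = 6) in IIIM abdomens, and 8974 ± 2643 and 9501 ± 3538 in heads. The main fits of heads held no replicate term, although the numbers were taken to pair male heads. Their spread thus includes the step to replicate 3, and a missing call in heads does not show equal levels. The spread between replicates includes that step in abdomens too, and with a replicate block CPR in the abdomen differed by -0.37 with an SE of 0.22 in place of 0.57 (adjusted p = 0.454). In replicate order, CPR was 4131, 3101 and 13594 in YM abdomens, 4801, 7519 and 15391 in IIIM #1, and 4994, 5009 and 18709 in IIIM #2. The numbers were not taken to pair abdomens, so these values are not read as matched. The smaller SEs of the block rest on a pairing that was not shown there. With the block YM differed from IIIM #1 by -0.56 (SE 0.31, adjusted p = 0.339) and from IIIM #2 by -0.48 (SE 0.31, adjusted p = 0.331).

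Between pairs of genotypes the only call was for CYP12A2 in the abdomen, lower in YM than in YM(III) males. Its normalized counts were 125, 130 and 105 in YM, 349, 214 and 268 in YM(III), 102, 112 and 144 in IIIM #1, and 190, 158 and 183 in IIIM #2. The YM(III) males lay above all other males, IIIM #2 lay next, and YM and IIIM #1 overlapped at the bottom. The log2 fold change of YM against YM(III) was -1.18 (SE 0.23, adjusted p = 0.0137), in a comparison where 9.23% of all genes were called. It was -1.21 without YM replicate 1, with an adjusted p of 0.0558, and the adjusted p was 0.0550 with replicates 1 and 2 alone and 0.0548 without the 2 shallowest libraries. Against IIIM #1, CYP12A2 was higher in YM(III) by 1.20 with an adjusted p of 0.0872, and 0.185% of all genes were called. DESeq2 called that difference (adjusted p = 0.00125, with 3.29% of all genes called), as did a fit with replicate 3 as a batch term (adjusted p = 0.0210, with 4.4% called).

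CYP6A40 had a similar order in the abdomen. Its normalized counts were 227, 314 and 191 in YM, 501, 360 and 364 in YM(III), 372, 290 and 261 in IIIM #1 and 342, 317 and 376 in IIIM #2. YM(III) and YM did not overlap, but the difference of -0.75 (SE 0.24) had an adjusted p of 0.0825 in limma, 0.0116 in DESeq2, which called 17.4% of all genes, and 0.0325 with replicate 3 as a batch term, which called 20.5%. In the head CYP12A2 averaged 445 ± 118 (SD, n = 3) and CYP6A40 392 ± 70.2 in YM(III), again the highest means among males, without a call.

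The other abdomen pairs gave 0 calls among 7 members each, beside 0.0705% of all genes for YM against IIIM #1, 0.855% for YM against IIIM #2, 0.397% for YM(III) against IIIM #2 and 0.0441% for IIIM #1 against IIIM #2. In the head 0 of 42 member and pair combinations were called and 1 had an unadjusted p under 0.05. The shares of all genes called there were 0.804% for YM against YM(III), 0.357% for YM against IIIM #1, 0.846% for YM against IIIM #2, 0.166% for YM(III) against IIIM #1, 0.489% for YM(III) against IIIM #2 and 0.174% for IIIM #1 against IIIM #2.

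The genotype differences of CYP6D8 depended on the replicates used. In the head its normalized counts were 7511, 6467 and 10690.3 in IIIM #1, 1943, 1811 and 11662 in IIIM #2, 1356, 2097 and 7644 in YM(III), and 2046, 3987 and 13528 in YM, in replicate order. In replicates 1 and 2 IIIM #1 lay above all other males, and in replicate 3 it did not. With replicates 1 and 2 alone CYP6D8 was higher in IIIM #1 than in IIIM #2 by a log2 fold change of 1.89 (SE 0.32, adjusted p = 0.0219, with 4.05% of all genes called) and lower in YM(III) than in IIIM #1 (log2 fold change -2.05, SE 0.32, adjusted p = 0.0192, with 5.53% called). In abdomens CYP6D8 had 399, 2244 and 13956 in YM(III) and 5954, 14388 and 7734 in IIIM #1, so that YM(III) lay below IIIM #1 in replicates 1 and 2 and above it in replicate 3. That difference was not called with replicates 1 and 2 alone (log2 fold change -3.29, SE 1.04, adjusted p = 0.180) or with all 3 (-1.91, SE 1.38, adjusted p = 0.897). CYP6A40 in the fit of heads of replicates 1 and 2 was higher in YM(III) than in IIIM #1 by 0.62 (SE 0.15, adjusted p = 0.0480).

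The authors' deposited table gave comparisons whose mean values matched replicates 1 and 2 alone. In the authors' deposited table CYP6D8 was higher in CS than in IsoCS males by a log2 fold change of 3.17 in the abdomen (adjusted p = 2.87e-06) and of 1.20 in the head (adjusted p = 0.000884), and lower in CSrab than in CS heads by -1.89 (adjusted p = 8.56e-36). For the CS against IsoCS abdomens the authors' deposited table also gave 1.66 for CYP6G4 (adjusted p = 0.00762) and 1.27 for CYP6D3 (adjusted p = 0.0410). For heads it gave CYP6A24 at -0.92 in bwbCS against IsoCS (adjusted p = 0.0379) and at -0.45 in CSrab against CS (adjusted p = 0.0192). In bwbCS against IsoCS abdomens, the YM(III) and YM males, CYP12A2 stood at 1.13 (adjusted p = 0.268) and CYP6A40 at 0.67 (adjusted p = 0.583). The authors' deposited table thus did not call either gene there. For CPR the lowest adjusted p in the authors' deposited table was 0.269, in CS against IsoCS abdomens.

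Replicate 3 differed from replicates 1 and 2 in 4 members in the abdomen and 5 in the head, a contrast added after the values were seen. In male abdomens CPR was 16171 ± 2188 (SD, n = 4) in replicate 3 and 4896 ± 1647 (SD, n = 8) in replicates 1 and 2, with no overlap. Its log2 difference was 1.79 (SE 0.24, adjusted p = 0.000601), and those of CYP6A24 (1.77, SE 0.37, adjusted p = 0.00552), CYP6G4 (1.90, SE 0.48, adjusted p = 0.0138) and CYP6D8 (2.38, SE 0.72, adjusted p = 0.0299) were also called. CYP6D3 (0.50, adjusted p = 0.171), CYP12A2 (0.05, adjusted p = 0.836) and CYP6A40 (-0.21, adjusted p = 0.350) were not. Of all genes 14% were called higher in replicate 3 and 31.3% in either direction. Within a genotype CYP6D8 reached a 35.0-fold range, from 399 to 13956 in YM(III) abdomens.

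In male heads CPR was 12945 ± 2243 (SD, n = 4) in replicate 3 and 7383 ± 336 (SD, n = 8) in replicates 1 and 2, again with no overlap. CPR (log2 difference 0.79, SE 0.11, adjusted p = 0.000194), CYP6D8 (1.92, SE 0.29, adjusted p = 0.000391), CYP6G4 (1.36, SE 0.25, adjusted p = 0.00127), CYP12A2 (0.46, SE 0.13, adjusted p = 0.0123) and CYP6A24 (0.60, SE 0.22, adjusted p = 0.0422) were higher in replicate 3. CYP6D3 (0.14, adjusted p = 0.379) and CYP6A40 (-0.26, adjusted p = 0.0666) were not called. Of all genes 24.6% were called higher and 49% in either direction. Sequencing depth moved with replicate number, and its part in these differences was not tested. LOC101896437, with the synonym Cyt-b5 (cytochrome b5, the second electron donor of microsomal P450 enzymes), was higher in replicate 3 by 2.32 in the abdomen (adjusted p = 7.22e-06) and by 1.01 in the head (adjusted p = 4.23e-05).

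Whether the reductase follows the P450 genes was asked across male libraries within each tissue. Because replicate 3 formed a separate cluster in CPR, the correlations of CPR with the P450 genes are given over the other 8 males. Over the 8 male abdomens of replicates 1 and 2, CPR and CYP6D3 had a Pearson r of 0.937 (exact permutation p = 0.000347, adjusted over 12 relations 0.00417) and a Spearman rho of 0.976 (exact permutation p = 0.000397, adjusted 0.00476). CPR and CYP6A24 had an r of 0.909 (exact permutation p = 0.00590, adjusted 0.0354) and a rho of 0.762 (exact permutation p = 0.0368, adjusted 0.221). CYP6D8 (r = 0.794, exact permutation p = 0.0198, adjusted 0.0792; rho = 0.714) and CYP6G4 (r = 0.710, exact permutation p = 0.0479, adjusted 0.144; rho = 0.595) did not pass the adjustment. CYP6A40 (r = -0.322, exact permutation p = 0.449) and CYP12A2 (r = -0.358, exact permutation p = 0.382) showed no positive relation to CPR. The r of CPR with all 11341 other genes in these libraries had a median of 0.01, and 90% of the genes lay between -0.620 and 0.706. Without the 2 libraries farthest from the median of CPR, r was 0.894 for CYP6D3 (n = 6, exact permutation p = 0.00278, adjusted 0.0333) and 0.732 for CYP6A24 (n = 6, exact permutation p = 0.128), so the relation of CYP6A24 no longer passed without those 2 libraries, at a smaller n. The libraries share their normalization, and the 2 shallowest are among the 8. The permutations treat the 8 males as exchangeable and ignore genotype, so genotype differences may be part of these relations. Values centred by genotype were not computed over these 8.

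In the 8 male heads of replicates 1 and 2 CPR varied little, from 6843 to 7795, and no relation passed. The r was 0.618 for CYP6G4 (exact permutation p = 0.104, adjusted 0.249), 0.529 for CYP6D3 (exact permutation p = 0.162), 0.417 for CYP12A2 (exact permutation p = 0.303), 0.208 for CYP6D8 (exact permutation p = 0.631), 0.203 for CYP6A24 (exact permutation p = 0.620) and 0.179 for CYP6A40 (exact permutation p = 0.666). For 90% of all genes r lay between -0.549 and 0.580.

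**Figure D5:**
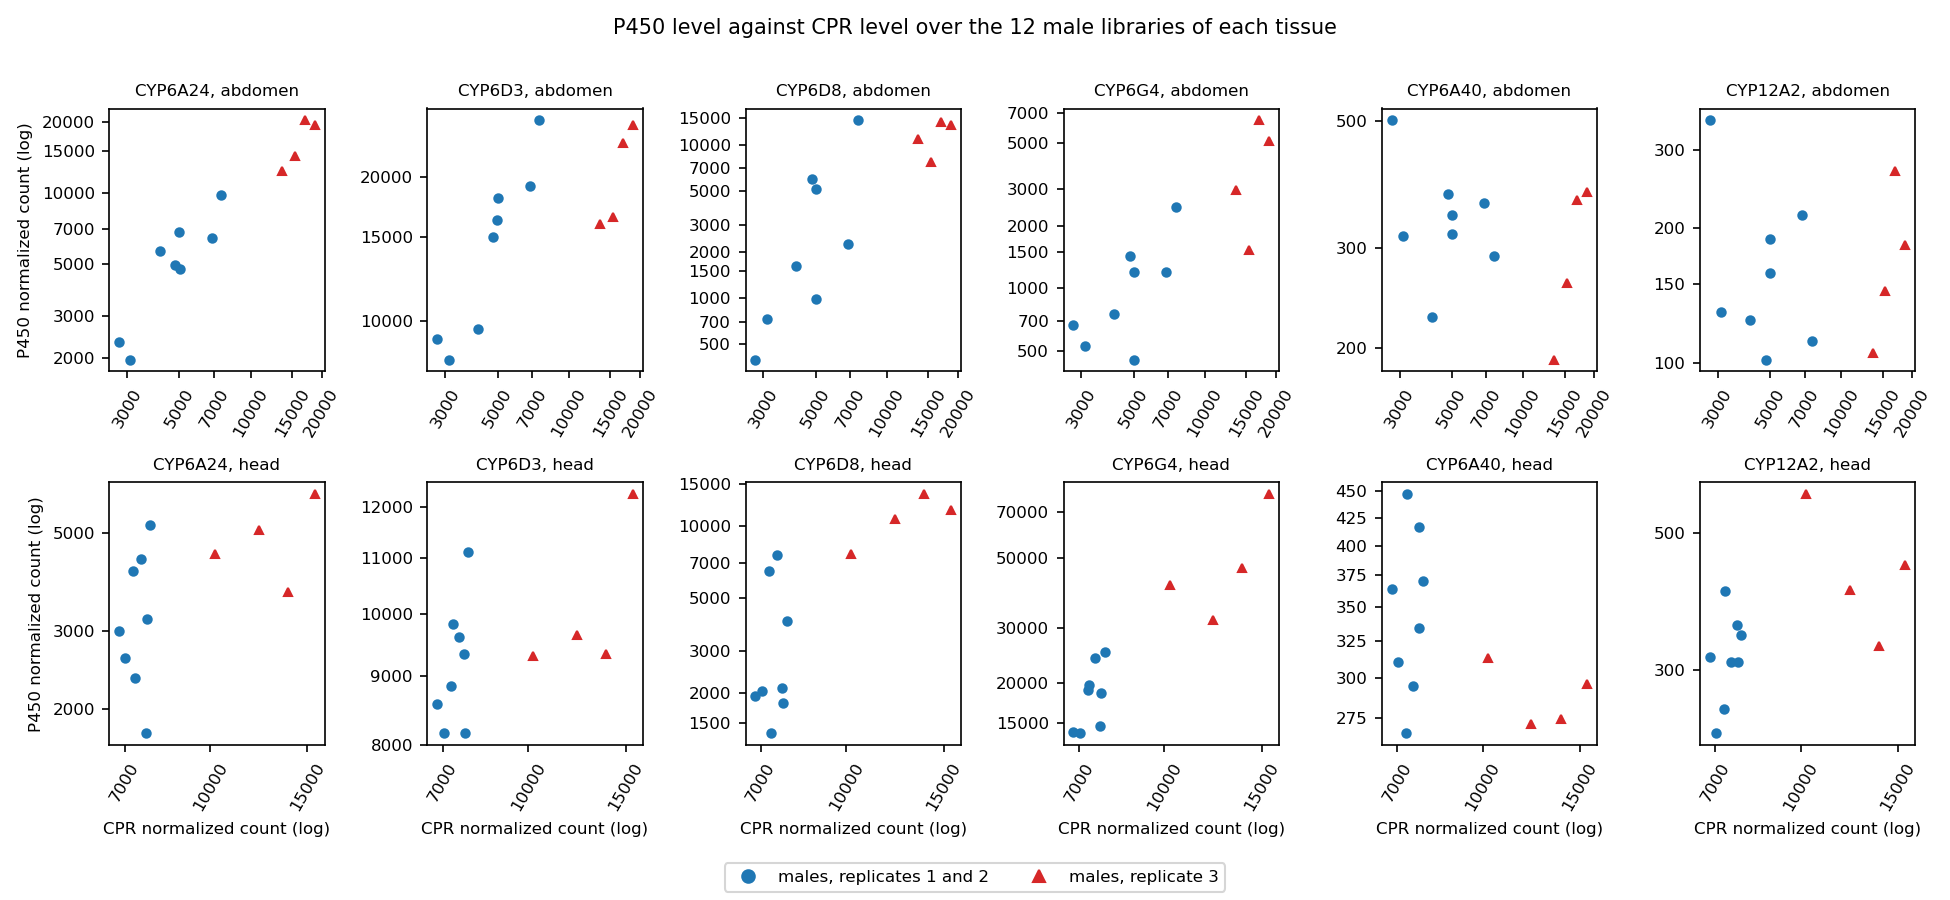
Normalized count of each P450 gene against that of CPR over the 12 male libraries of each tissue (both axes logarithmic); circles are replicates 1 and 2, triangles replicate 3. In the abdomen CYP6A24 rises along with CPR through both clusters, while CYP6D3 rises steeply within replicates 1 and 2 and is not higher in proportion in replicate 3.

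The quotient to CPR separates the P450 genes by how they behaved in replicate 3. For CYP6A24 in the abdomen it was 0.911 to 1.19 in replicate 3, inside the 0.635 to 1.37 of replicates 1 and 2. For CYP6D3 it was 1.07 to 1.39 in replicate 3 and 2.33 to 3.60 in replicates 1 and 2, with no overlap. CYP6A40 fell in the same pattern, from 0.039 to 0.180 in replicates 1 and 2 against 0.014 to 0.021 in replicate 3. In the head the quotient of CYP6D3 was 0.674 to 0.912 in replicate 3 and 1.06 to 1.42 in replicates 1 and 2, again without overlap. These quotients were compared after the values were seen and carry no test. How many of all genes separate in this way was not computed.

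The genes whose log2 levels were most like CPR over the 12 male libraries, among genes with a mean of at least 50, were LOC101901608 (r = 0.989), LOC101887218 (r = 0.985) and LOC101899112 (r = 0.985) among 8089 in the abdomen. Among 9882 in the head they were LOC101891394 (r = 0.992), LOC101899609 (r = 0.991) and LOC101901199 (r = 0.985). These values include the step between replicate 3 and the rest and only rank the genes. Cyt-b5 ranked 133 in the abdomen (r = 0.928) and 82 in the head (r = 0.960).

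The other detoxification genes that could be matched by name were few. In the abdomen LOC101889365, with the synonym CYP6A1, was higher in males (33.3 ± 21.1, SD, n = 12, against 4.42 and 0.894 in the females; log2 fold change 3.12, SE 0.84, adjusted p = 0.00531), as the only 1 of 2 further P450 genes that passed the filter. Cyt-b5 was higher in males by 3.04 (SE 0.89, adjusted p = 0.00909), from 158 and 405 in females to 1000.0 to 6652 in males. All 3 glutathione transferases, which conjugate glutathione to reactive compounds, were called higher in males, as were 39% of all genes: GST by 5.005 (SE 0.49, adjusted p = 3.25e-06), GST-6A by 4.32 (SE 0.30, adjusted p = 3.57e-07) and LOC101897277 by 4.21 (SE 0.54, adjusted p = 2.60e-05). MdaE7, a carboxylesterase tied to organophosphate resistance, was higher by 3.75 (SE 0.36, adjusted p = 3.22e-06). HR96, a nuclear receptor that responds to xenobiotics in Drosophila, was lower in males by a log2 fold change of -1.84 (SE 0.50, adjusted p = 0.00567), with 103 and 189 in females and 15.3 to 70.3 in males.

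In the head the same genes did not share a direction. MdaE7 was lower in males (log2 fold change -0.88, SE 0.14, adjusted p = 0.00150), from 5961 ± 1029 (SD, n = 3) in females to 3231 ± 380.3 (SD, n = 12) in males. GST was higher in males (1.37, SE 0.12, adjusted p = 3.49e-05), from 7283 ± 904 in females to 18856 ± 2413 in males. GST-6A (-0.74, adjusted p = 0.0751), LOC101897277 (-0.56, adjusted p = 0.0940), Cyt-b5 (-0.51, adjusted p = 0.314), LOC101889365 (-1.08, adjusted p = 0.0867), CYP12A1 (-0.96, adjusted p = 0.354) and HR96 (0.38, adjusted p = 0.116) were not called. None of these genes was called between pooled YM and IIIM males in either tissue.

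Side by side, the quotient of CYP6G4 to CPR was 0.0910 to 0.378 in male abdomens and 1.91 to 5.16 in male heads, and 0.027 and 0.065 in female abdomens against 3.39 to 3.54 in female heads. The quotient of CYP6A24 ran the other way in males, 0.635 to 1.37 in the abdomen and 0.229 to 0.668 in the head. CYP6D3 stood at 1.07 to 3.60 in male abdomens and 0.674 to 1.42 in male heads. In females both of these genes had the higher quotient in the head. CYP6A24 stood at 0.190 and 0.339 in female abdomens and 0.378 to 0.629 in female heads. For CYP6D3 the female values were 0.207 and 0.358 in abdomens and 1.03 to 1.12 in heads. The quotients of CYP6G4 did not overlap between the tissues in either sex. In females every other P450 gene also had a higher quotient in the head without overlap. In males the quotients of the other P450 genes overlapped between the tissues. The share of all genes separated between the tissues was not computed.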

How the data were processed

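Messenger RNA of dissected heads and abdomens of individual flies was sequenced with a stranded poly(A) library kit, per the labels' protocols. The authors deposited 1 table of normalized counts per tissue, a signal value per gene and library equal to the read count divided by a size factor. The submitters' processing notes name DESeq2 1.16.1, HTSeq 0.9.1, HISAT2 0.12.2 and CASAVA 1.8, and the build of the genome was not given in the sources used here. Whole reads were recovered from 100% of the values within 0.001 reads. The authors' deposited log2 fold changes and p-values, quoted as theirs, have mean values that are weighted sums of replicates 1 and 2 alone.

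The main test was limma 3.58.1 (trend, robust) in R 4.3.3 on log2(value + 1), keeping genes that reached 10 in 3 or more libraries, with 1 mean per group and Benjamini-Hochberg adjustment over all genes of a tissue at 0.05. Fold changes on this scale understate the change of low genes. Since the tables hold normalized values, count models (DESeq2 1.42.0, edgeR 4.0.16) served only as alternatives, on the recovered reads. For quotients to CPR, the log2 value of CPR was subtracted in each library. Correlations used exact permutation tests, two-sided. Scripts were tested on simulated data. Figures were drawn with matplotlib 3.10.9 in Python 3.11.15.

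All 7 members are named in each comparison; other named genes are those of the pathway lists that were called, at most 3 a list, and the 3 genes most like CPR. The members, lists and tests were chosen with earlier results of these data known. Gene names come from the tables and, for 13644 of the IDs, from RefSeq gene records of another assembly; 2896 IDs were not matched. How reads shared by close CYP6 copies were counted is not stated, so the values of CYP6 genes may include reads of near-identical copies.

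Replicate numbers come from the labels, which do not say what they mark. Deviations from genotype means of same-numbered male heads correlated at 0.279 to 0.671 in every pair, so the numbers were taken to pair male heads. Differently numbered male heads correlated at -0.594 to 0.421. The step to replicate 3 can by itself make replicates 1 and 2 deviate together, so a pairing of those 2 numbers was not shown. In male abdomens same-numbered pairs also correlated positively, at means of 0.192, 0.289 and 0.509 for numbers 1, 2 and 3. Differently numbered male abdomens had a mean of -0.160, with a range of -0.586 to 0.385. Because 1 same-numbered pair lay as low as 0.0732, the numbers were not taken to pair abdomens. That choice rests on this pair and does not show that abdomens lack the structure seen in heads. Replicates are separate samples per the labels' design, but each p-value measures only the spread between these samples. Sequences, promoter motifs and transcript lengths were not used here.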

Additional observations from a re-analysis of the deposited data

Results flagged for a closer look

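In the head, CYP6G4 in IIIM #2 replicate 3 stood at 79733 normalized counts, far from the other 5 IIIM males, of which the nearest had 31825. The gap was 0.729 of the range of the 6 values. CYP6D3 in the same library stood at 12255 normalized counts against a nearest value of 9654, a gap of 0.636 of the range. Of 28 groups of male libraries examined, these were the only 2 with such a gap, and chance gives about 1 in 20 groups. The library also has the highest CPR of all heads, at 15466, and its part in the sex comparison is given by the fit without it.

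CYP6D3 and CYP6A40 lay on opposite sides of the females in the 2 tissues. CYP6D3 was higher in males by a log2 fold change of 4.46 in the abdomen and stood at -0.67 in the head, with every male above every female in the former and below every female in the latter. CYP6A40 stood at 3.93 in the abdomen and -0.62 in the head, with the same separation. The difference between tissues was not tested.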

How the results depend on the processing

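The count of members called between the sexes in the abdomen, 6, and those between pooled YM and IIIM males, 0 in both tissues, stayed within 1.5 times of these values under each alternative run, except that the sexes gave 4 to 7 in fits without 1 library. Between the sexes in the head, 3 calls became 5 with a replicate block and 7 with replicates 1 and 2 only among males, with a range of 1 to 6 when 1 library was left out. Relative to CPR in the abdomen, 6 calls became 2 with YM males alone and 3 with IIIM #2 males alone, and 0 to 6 when 1 library was left out. For the abdomen fits with males of 1 genotype the shares of all genes called are not given here. Relative to CPR in the head, 0 became 4 with replicates 1 and 2 only, where 76% of all genes were called. Between pairs of genotypes in the abdomen, 1 call became 3 with a replicate block, 3 with DESeq2, 3 with replicate 3 as a batch term (added after seeing the data), 0 with replicates 1 and 2 only and 0 without the 2 shallowest libraries, with a range of 0 to 2 when 1 library was left out. Over all 11342 genes, YM against YM(III) went from 1047 calls to 2379 with the block, 1979 with DESeq2 and 2325 with the batch term. YM(III) against IIIM #1 went from 21 calls to 479, 373 and 499 in the same order. Between pairs of genotypes in the head, 0 became 3 with replicates 1 and 2 only. The number of P450 genes whose correlation with CPR passed was 4 of 6 over 12 abdomens, 2 with replicates 1 and 2 only and 1 there without the 2 libraries farthest from the median of CPR (added after seeing the data). Over 12 heads it was 2, with 5 for deviations from genotype means, of which CYP6A40 was negative (r = -0.682), as it was among those that passed for abdomen deviations (r = -0.624), 0 with replicates 1 and 2 only and 0 there without the 2 farthest libraries. The causes were not tested, apart from the smaller number of samples in the last settings.

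Of 741 values of single genes under alternatives, 668 kept their side of the threshold, 24 of them uncalled values that changed sign, while 55 lost a call, 18 gained one and 0 called values changed sign. In abdomens, where the replicate numbers do not pair the samples in every pair, the replicate block moved the calls between sexes from 6 to 7 and all genes called from 8195 to 8948. Female libraries number 2 and 3, male abdomens differ in depth by up to 55.1 times, and the lowest library gives CYP12A2 17 reads, which limits what these genes can show there.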
